A study of Mus musculus with 6 samples.

Results

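The 5 hairpins within the serotonin receptor gene Htr2c, miR-764, miR-1912, miR-1264, miR-1298 and miR-448, were followed as 10 mature microRNA (miRNA) arms in extracellular vesicles of mouse brain. The members were chosen by name and host gene, as both arms of each hairpin, and they are 10 of the 1926 miRNAs that the deposited RPM table lists. RPM are reads of a miRNA scaled to the same total of miRNA reads in each library. The 6 libraries form 2 groups by their labels: 3 from vesicles of mice that had gone through status epilepticus (SE), a prolonged seizure, and 3 from vesicles of control mice (CON). The title gives a time of 24 hr. The labels used here name no seizure-inducing agent, strain, sex or age, and do not say whether animals were pooled. Separate animals for each replicate are not stated either, which means that the p-values cover the spread of these libraries, and that spread may be technical.

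Htr2c encodes a G protein-coupled serotonin receptor that is abundant in the epithelium of the choroid plexus and in many neurons, and mice that lack it are prone to seizures. A miRNA in an intron is cut from the primary transcript as a hairpin, and 1 or both arms of the hairpin become mature miRNAs that lower the output of messenger RNAs matching their seed, bases 2 to 8. Cells release vesicles that carry some of these miRNAs, and the question here is whether vesicles after status epilepticus carry other levels of the Htr2c miRNAs than control vesicles.

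The hairpins lie on the plus strand of chromosome X (GRCm38), in the same direction as Htr2c, which RefSeq places at chrX:146962464-147197277. All are intronic in the 4 protein-coding Htr2c transcripts of GENCODE. In a transcript with 6 exons, miR-764 (chrX:147002259-147002366), miR-1912 (chrX:147009441-147009527), miR-1264 (chrX:147010601-147010686) and miR-1298 (chrX:147064905-147065002) sit in intron 2, upstream of the first coding base. miR-448 (chrX:147158210-147158321) sits in intron 4. miR-1912 and miR-1264 are the closest neighbours, with 1073 bases between them, whereas 54218 bases separate miR-1264 from miR-1298 and 93207 bases separate miR-1298 from miR-448.

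The mature sequences are shown because no 2 of them share a seed, so that their reads and their predicted pairing differ. RefSeq (GRCm38.p6) held 8 of the 10 arms, all except miR-1264-5p and miR-1912-5p. They run 5′ to 3′ with the seed in capitals.
miR-764-5p: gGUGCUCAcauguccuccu
miR-764-3p: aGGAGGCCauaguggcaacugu
miR-1912-3p: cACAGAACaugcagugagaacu
miR-1264-3p: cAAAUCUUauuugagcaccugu
miR-1298-5p: uUCAUUCGgcuguccagaugua
miR-1298-3p: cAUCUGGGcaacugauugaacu
miR-448-5p: gAACAUCCugcauagugcugcc
miR-448-3p: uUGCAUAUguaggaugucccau
Each of these sequences has 1 locus in the RefSeq table. Only miR-764-3p shares its whole seed with another listed mouse miRNA, miR-7062-5p, which was at 0 in all 6 libraries. miR-448-3p shares bases 2 to 7 with the neuronal miR-153-3p, whose seed is UGCAUAG against UGCAUAU in miR-448-3p. miR-153-3p had a mean of 39.8 RPM in the SE group and of 37.6 RPM in the CON group.

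The hairpins miR-1298 and miR-448 are given whole, with both mature arms in capitals, because their abundant arms lie on opposite sides of the loop: the 5′ arm in miR-1298 and the 3′ arm in miR-448.
miR-1298: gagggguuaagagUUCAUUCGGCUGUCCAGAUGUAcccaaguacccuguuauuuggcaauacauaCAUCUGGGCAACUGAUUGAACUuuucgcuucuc
miR-448: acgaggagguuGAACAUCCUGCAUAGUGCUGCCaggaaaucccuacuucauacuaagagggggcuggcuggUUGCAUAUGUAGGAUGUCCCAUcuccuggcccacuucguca

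The libraries held 6016533 to 10845434 miRNA reads in the SE group and 5482407 to 6504884 in the CON group. A value of 0 allows up to 3 reads, which is 0.277 to 0.499 RPM in SE and 0.461 to 0.547 RPM in CON libraries. Counting error is all that these limits and the binomial intervals cover. As each column's lowest nonzero value stood for 2 reads, 1 read could be hidden in a listed 0. In the deposited table the miRNA names go with the SE columns only, and all CON values here were found again for each name through the base mean that the authors' deposited fold-change table lists. This changed the CON reads of all 10 arms. The log2 fold changes of the authors' deposited table were used there only to pick miRNAs for the SE size factors. They were compared over 315 miRNAs with a base mean of at least 50 and reads in all libraries. The matched reads gave log2 ratios within 0.0161 of these fold changes, against gaps of up to 2.03 with the names as deposited. As the base mean already fixes each CON total, this closeness bears on the totals only. It cannot check how a total is split over the CON replicates. Directions follow the column labels SE and CON, which no other value checks.

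All 10 arms were detected, 8 of them in all 6 libraries, and 4 arms held nearly all of their reads. miR-1298-5p, miR-1264-3p, miR-448-3p and miR-764-3p together made up 97.1% ± 1.13 of the member reads in the SE libraries and 97.4% ± 1.14 in the CON libraries (SD, n = 3 each). By mean RPM, miR-1298-5p ranked 90, miR-1264-3p 101, miR-448-3p 136 and miR-764-3p 274 among the 775 miRNAs detected, and the 6 other arms ranked between 412 and 571. Together the 10 arms reached 335, 545 and 341 RPM in SE replicates 1, 2 and 3, against 398, 617 and 539.6 RPM in CON replicates 1, 2 and 3. Counting error is small against the larger of these differences but not against all. The exact 95% binomial intervals of SE replicates 1 and 3 overlapped, at 324 to 346 and 327 to 356 RPM. Those of SE replicate 2 and CON replicate 3 did too, at 527 to 564 and 522 to 558 RPM. The SE mean was 407 RPM (SD 119.7, n = 3) and the CON mean 518 RPM (SD 111, n = 3), and the ranges overlap.

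**Figure D1:**
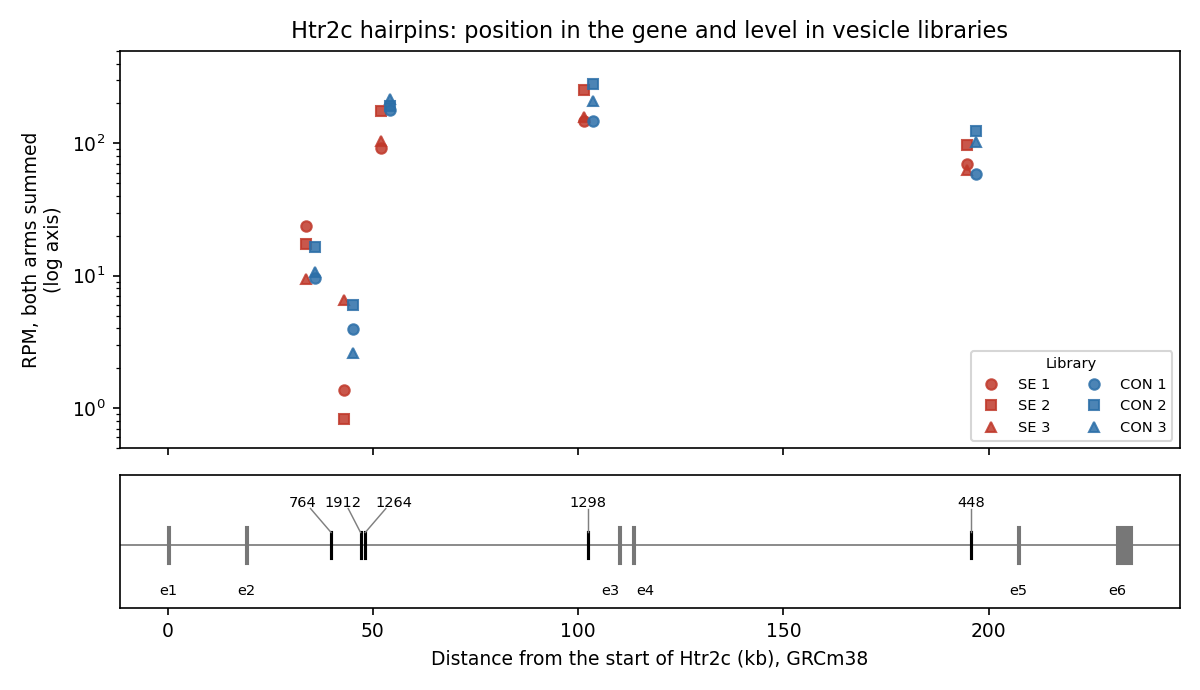
Top, RPM of each Htr2c hairpin, both arms summed, on a log axis, 1 point per library (SE left and red, CON right and blue, marker shape by replicate), placed near its position in the gene. Bottom, exons e1 to e6 (grey) and the 5 hairpins (black), as distance in kb from the start of Htr2c. miR-1264, miR-1298 and miR-448 reached 58.6 RPM or more in each library, while miR-1912, beside miR-1264, stayed at 6.58 RPM or less.

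miR-1298-5p was the most abundant arm by the mean of each group, though not in CON replicates 1 and 3, where miR-1264-3p was higher. It stood at 144, 252 and 154 RPM in SE replicates 1, 2 and 3, against 142, 276 and 206 RPM in CON replicates 1, 2 and 3. The second replicate was the highest of both groups, replicate 1 the lowest of both, and the groups overlapped over nearly their whole range. The log2 fold change, SE over CON, was -0.17 (standard error 0.26, 95% interval -0.73 to 0.38), with an adjusted p of 0.887 by limma. It was 0.06 without CON replicate 2.

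miR-1264-3p had 92.1, 176 and 104 RPM in SE replicates 1, 2 and 3, against 177, 191 and 214 RPM in CON replicates 1, 2 and 3. All 3 SE values lay below all 3 CON values, but SE replicate 2 at 176 RPM came next to CON replicate 1 at 177 RPM. The SE mean was 124 RPM (SD 45.1, n = 3) and the CON mean 194 RPM (SD 18.5, n = 3), which is 1.57-fold lower in SE. Its log2 fold change of -0.70 (standard error 0.24, 95% interval -1.20 to -0.19) had an unadjusted p of 0.00963 and an adjusted p of 0.233 by limma, and so did not pass. With the CON values under the names as deposited it was -0.03.

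miR-448-3p, which acts on the factor KLF5 in differentiating mouse fat cells, had 66.8, 94.6 and 61.1 RPM in SE replicates 1, 2 and 3, against 54.9, 121 and 101 RPM in CON replicates 1, 2 and 3. CON replicate 1 lay below all SE values and the other CON replicates above them, so the groups overlapped. The log2 fold change was -0.26 (standard error 0.27, 95% interval -0.84 to 0.32), with a limma adjusted p of 0.863. Without CON replicate 1 it was -0.60 and without CON replicate 2 it was -0.03, with no call in either.

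miR-764-3p, at 21.8, 13.5 and 8.07 RPM in SE replicates 1, 2 and 3, stood against 8.22, 15.7 and 9.07 RPM in CON replicates 1, 2 and 3. SE replicate 1, with 236 reads, was the highest library and the other 5 lay between 8.07 and 15.7 RPM. This is the one tested arm with a positive log2 fold change, 0.32 (standard error 0.34, 95% interval -0.41 to 1.04; limma adjusted p of 0.863), and without SE replicate 1 it was -0.01.

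**Figure D2:**
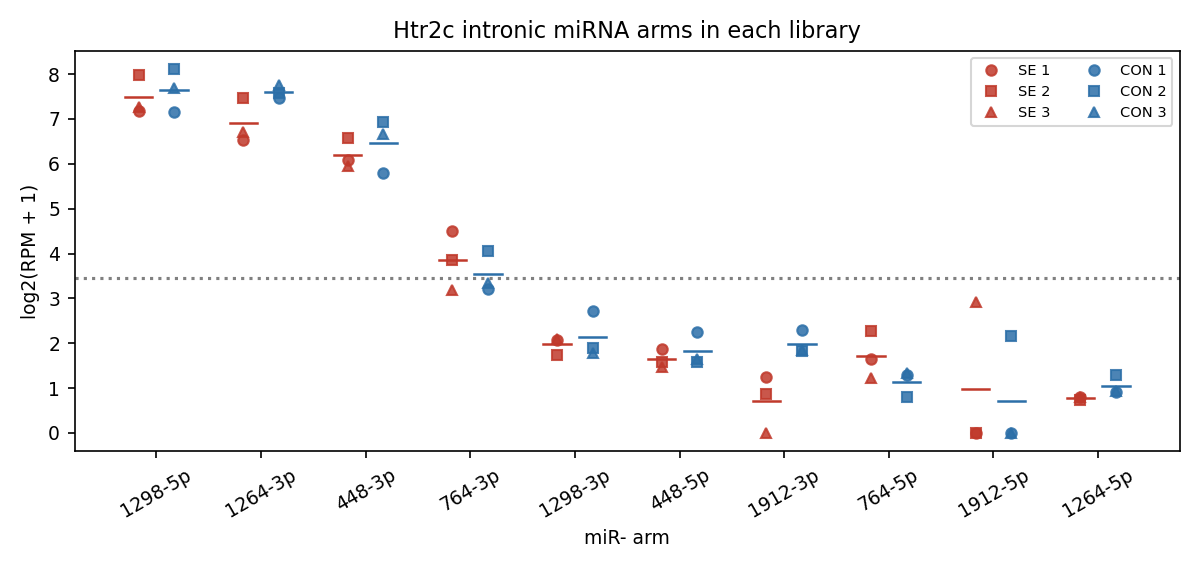
log2(RPM + 1) of the 10 Htr2c arms, ordered by mean level, with 1 point per library (SE left and red, CON right and blue) and short lines for the group means. The dotted line marks 10 RPM. miR-1264-3p, miR-1912-3p and miR-1264-5p have all SE points below all CON points, and the other 7 arms overlap.

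In the comparison of SE with CON, 0 of the 4 tested Htr2c arms passed an adjusted p under 0.05 by limma-trend. The test used log2(RPM + 1), on which changes of rare miRNAs come out too small. limma called 1.03% of the 290 miRNAs whose mean reached 10 RPM (0.69% as lower in SE), and the adjustment ran over all of these. With no filter it called 0.516% of 775 and again 0 of the 10 arms. At an unadjusted p under 0.05 there was 1 of the 4, miR-1264-3p, against 9.31% of all miRNAs tested. That count was 0 of 4 without SE replicate 1, under quantile normalization and with the CON names as deposited, and 2 of 4 without CON replicate 1. The median log2 fold change was -0.22 for the 4 arms and -0.07 for all 290. A lower level in a bulk vesicle library can come from fewer vesicles of one cell type or from fewer copies per vesicle, which cannot be told apart here.

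The 6 arms below 10 RPM were the partner strands and both arms of miR-1912. miR-1912-3p was at 1.38, 0.831 and 0 RPM in SE replicates 1, 2 and 3, against 3.93, 2.55 and 2.61 RPM in CON replicates 1, 2 and 3. All SE values lay below all CON values, on 20 reads in the SE group and 53 in the CON group, and the 0 in SE replicate 3 allows up to 0.448 RPM. In a fit with no filter on low values its log2 fold change was -1.29 (standard error 0.42, 95% interval -2.25 to -0.33), with a limma adjusted p of 0.635 over 775 miRNAs.

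miR-1264-5p showed the same order at lower levels, with 0.738, 0.665 and 0.747 RPM in SE replicates 1, 2 and 3, against 0.894, 1.46 and 0.922 RPM in CON replicates 1, 2 and 3. These values rest on 4 to 8 reads a library in SE and 5 to 8 in CON libraries. Its log2 fold change in the fit with no filter was -0.27, with a 95% interval of -1.02 to 0.47. miR-1298-3p ranged from 2.33 to 3.29 RPM in SE and 2.46 to 5.54 RPM in CON libraries, and miR-448-5p from 1.79 to 2.67 RPM in SE and 2.01 to 3.75 RPM in CON libraries. miR-764-5p, a regulator of osteoblast differentiation in mouse, ranged from 1.35 to 3.82 RPM in SE and 0.73 to 1.54 RPM in CON libraries. The SE and CON ranges of these 3 arms overlapped. miR-1912-5p was read in 1 SE library, at 6.58 RPM, and in 1 CON library, at 3.47 RPM.

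Counted over all 10 arms, 3 had SE and CON values that did not overlap, each lower in SE, and 2 of the 3 come from 1 hairpin. For 1 of the 3, miR-1264-5p, SE replicate 3 and CON replicate 1 both had 5 reads, so library depth sets their order. Of the 775 miRNAs detected, 195 were at 0 in at least 4 libraries, hence in both groups, and could not separate. Among all 775, 7.23% were lower in SE without overlap and 9.29% did not overlap in either direction. Among the 290 tested ones these shares were 13.4% and 14.8%, against 1 of the 4 tested Htr2c arms.

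**Figure D3:**
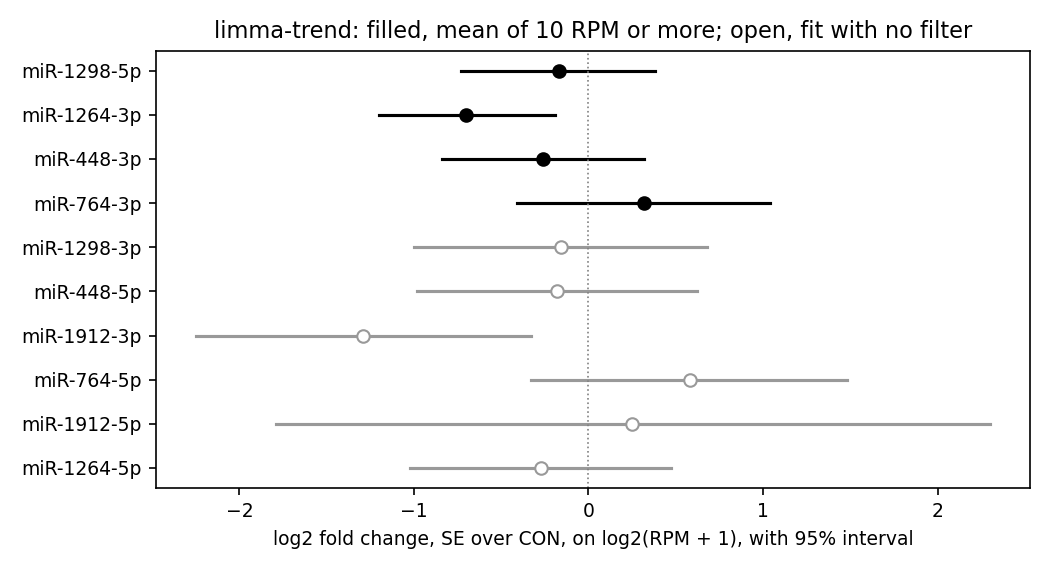
log2 fold change, SE over CON, with its 95% interval from limma-trend on log2(RPM + 1). Filled points are the 4 arms with a mean of at least 10 RPM and open points the 6 others, from the fit with no filter. The intervals of miR-1264-3p (-1.20 to -0.19) and miR-1912-3p (-2.25 to -0.33) leave out 0 before adjustment, and neither passed after it.

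The authors' deposited table gives 0 calls among the 10 arms, with 1.04% of its 772 miRNAs called. Its sign is positive where CON is higher, as the matched reads show, and is turned here to SE over CON. Its log2 fold change for miR-1264-3p was -0.53 (standard error 0.31, p = 0.0825) and for miR-1912-3p -1.97 (standard error 1.11, p = 0.0774) in the authors' deposited table. The adjusted p was 0.975 for both in the authors' deposited table. These values share the reads analysed above and are not independent of them.

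Arm use set the hairpins apart from each other. The 3′ arm took 99.4% ± 0.221 of the miR-1264 reads in the SE libraries and 99.4% ± 0.172 in the CON libraries (SD, n = 3 each). For miR-448 the 3′ arm took 97.1% ± 0.895 in the SE libraries and 96.6% ± 2.63 in the CON libraries (SD, n = 3 each). For miR-764 the same arm took 84.9% ± 6.65 in the SE libraries and 88.7% ± 5.9 in the CON libraries (SD, n = 3 each). In miR-1298 the 5′ arm led, with 98.3% ± 0.707 in the SE libraries and 98% ± 1.55 in the CON libraries (SD, n = 3 each). The group means of these 4 hairpins differed by less than the SD of at least 1 group.

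CON replicate 1 had the lowest share of the leading arm for both miR-1298, at 96.2% (exact 95% binomial interval 94.7 to 97.4), and miR-448, at 93.6% (90.4 to 96). In this library the partner arms miR-1298-3p and miR-448-5p had their highest RPM of all 6 libraries, while miR-1298-5p and miR-448-3p had their lowest. The partner arms rest there on 31 and 21 reads.

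In percentage points, the share of the member reads varied most for miR-1264-3p in both groups. It made up 27.5%, 32.2% and 30.5% of the member reads in SE replicates 1, 2 and 3, against 44.6%, 31% and 39.7% in CON replicates 1, 2 and 3. CON replicate 2 lay among the SE libraries, and the other CON replicates lay above. miR-1298-5p took 44.9% ± 1.61 in the SE libraries and 39.5% ± 4.65 in the CON libraries (SD, n = 3 each), and miR-448-3p took 18.4% ± 1.35 in the SE libraries and 17.4% ± 3.14 in the CON libraries (SD, n = 3 each).

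Ratios within a library do not depend on its scaling. The reads of miR-1264-3p over those of miR-1298-5p were 0.638, 0.696 and 0.674 in SE replicates 1, 2 and 3, against 1.25, 0.693 and 1.04 in CON replicates 1, 2 and 3. The 3 SE ratios lay close together and the CON ratios were spread from the SE level to 1.25. The mean log2 ratio differed by -0.53, SE minus CON, and permuting the libraries gave an exact two-sided p of 0.2 (adjusted p = 0.6 over 3 ratios), where 3 libraries against 3 cannot give a p below 0.1. For miR-448-3p over miR-1298-5p the difference was -0.09 (exact p = 0.6), and for miR-764-3p over miR-1298-5p it was 0.51 (exact p = 0.6), with SE replicate 1 at 0.151 and the other 5 libraries at 0.044 to 0.0579. These ratios were chosen after the values were seen.

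**Figure D4:**
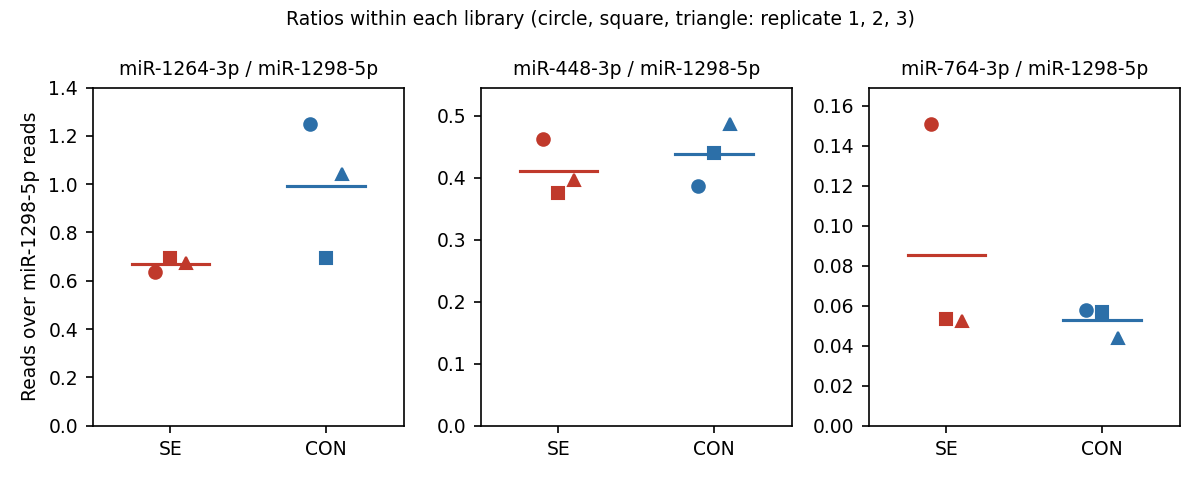
Reads of miR-1264-3p, miR-448-3p and miR-764-3p divided by the reads of miR-1298-5p in the same library, SE left and CON right, with lines for the group means. Each axis starts at 0. The miR-1264-3p ratio lies at 0.638 to 0.696 in SE and at 0.693 to 1.25 in CON libraries.

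Over all 6 libraries, miR-1298-5p and miR-448-3p kept the steadiest ratio of the 6 pairs among the 4 abundant arms. It ran from 2.05 to 2.67, a 1.3-fold span, and the hairpins lie in different introns. The span was 1.96-fold between miR-1298-5p and miR-1264-3p, which share an intron, and 3.43-fold between miR-1298-5p and miR-764-3p. SE replicate 1 sets the latter span, with a miR-764-3p to miR-1298-5p ratio of 0.151 there and of 0.044 to 0.0579 in all other libraries. The widest span was 5.57-fold, between miR-1264-3p and miR-764-3p.

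For pairs with miR-1298-5p the same order appeared when log2(RPM + 1) profiles, each centred on its own mean over the 6 libraries, were compared by their root mean square difference. Of the other 289 tested miRNAs, miR-448-3p was the closest to miR-1298-5p, at 0.138, and miR-1298-5p was the closest to miR-448-3p. miR-1264-3p took place 12 and miR-764-3p place 226 in closeness to miR-1298-5p. The place of miR-764-3p includes SE replicate 1, where its ratio to miR-1298-5p stood apart at 0.151. The 5 closest miRNAs from outside Htr2c were miR-34c-5p (0.264), miR-3059-3p (0.268), miR-204-5p (0.287), miR-324-3p (0.343) and miR-1968-5p (0.354). A miRNA that varied little can also come out close, so a place near the top is not by itself a shared pattern. miR-324-3p was highest in SE replicate 1, at 12.3 RPM, where miR-1298-5p was near its lowest, at 144 RPM. These distances describe 6 libraries that share an assay and a scaling, and they carry no test.

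miR-34c-5p, a product of multiciliated cells and a p53 target, had 86.7, 86.3 and 59.9 RPM in SE replicates 1, 2 and 3, against 54, 125 and 100.4 RPM in CON replicates 1, 2 and 3. Like miR-448-3p it was lowest in CON replicate 1 and highest in CON replicate 2. miR-204-5p, from an intron of Trpm3 and abundant in choroid plexus, had 382, 561 and 257 RPM in SE replicates 1, 2 and 3, against 293, 397 and 449.8 RPM in CON replicates 1, 2 and 3. miR-204-5p was highest in SE replicate 2 and lowest in SE replicate 3. miR-3059-3p, which came closer to miR-1298-5p than miR-204-5p did, had 22.2, 24.4 and 19.9 RPM in SE replicates 1, 2 and 3. Its CON replicates 1, 2 and 3 had 20, 26.8 and 21.4 RPM.

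**Figure D5:**
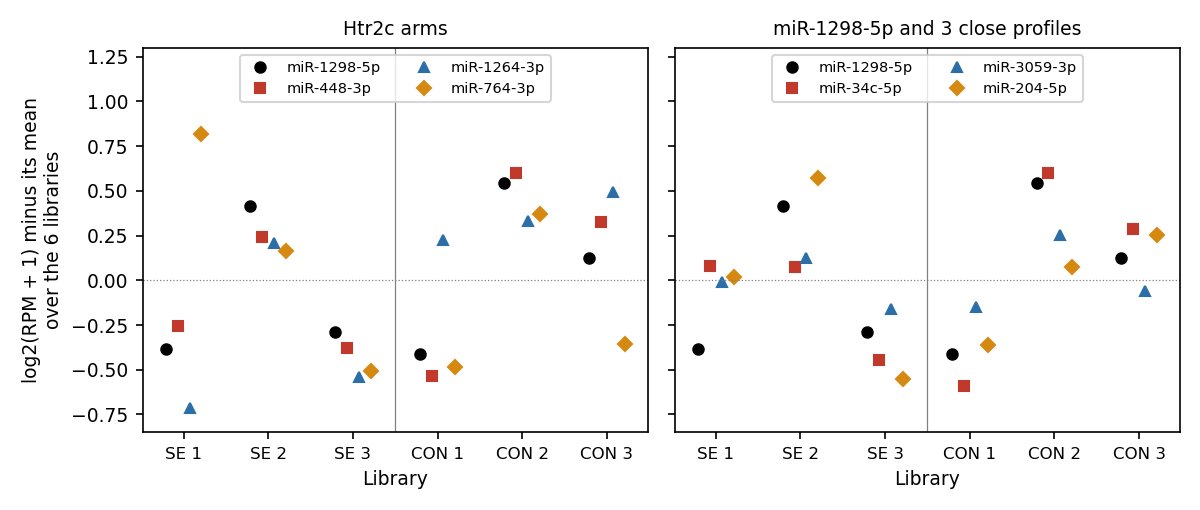
log2(RPM + 1) minus its mean over the 6 libraries, 1 point per library, for the 4 abundant Htr2c arms (left panel) and for miR-1298-5p with 3 of the closest profiles from other loci (right panel). miR-1298-5p and miR-448-3p run together, with a root mean square difference of 0.138, and miR-764-3p stands apart in SE replicate 1.

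The abundant arms varied more within groups than most miRNAs did. The within-group SD of log2(RPM + 1) was 0.458 for miR-1298-5p, 0.36 for miR-1264-3p, 0.478 for miR-448-3p and 0.572 for miR-764-3p, against a median of 0.253 over the 290 tested miRNAs. Of the 290, 260 had this SD or a lower one in the case of miR-1298-5p, 218 for miR-1264-3p, 266 for miR-448-3p and 286 for miR-764-3p. Wide ranges were not limited to these arms. miR-204-5p ran from 257 to 561 RPM in SE libraries, and miR-34c-5p from 54 to 125 RPM in CON libraries.

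Htr2c is active in choroid plexus and in neurons, so lists of miRNAs from both were set beside the Htr2c arms. Of 16 choroid plexus and ependyma arms, 12 were detected and 5 tested. The limma test called 0 of the 5, against 1.03% of all 290 tested miRNAs, and their median log2 fold change was -0.18. The summed level of the list ran from 379.8 to 719.7 RPM in SE and from 421 to 636 RPM in CON libraries, most of it miR-204-5p. miR-211-3p, miR-449a-3p, miR-449b and miR-449c-5p were at 0 in all 6 libraries, and miR-211-5p in 5. miR-429-3p, an epithelial miRNA, was the 1 of 5 tested members without overlap, where 14.8% of all tested miRNAs had none, with 9.5, 7.65 and 8.67 RPM in SE replicates 1, 2 and 3, against 17.5, 14.4 and 12.5 RPM in CON replicates 1, 2 and 3 (limma adjusted p of 0.373). The tested members of this list did not run alike over the libraries. miR-34c-5p was highest in CON replicate 2, miR-204-5p in SE replicate 2 and miR-429-3p in CON replicate 1. The part of choroid plexus vesicles in the Htr2c values was not tested.

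Neuron-enriched miRNAs were far more abundant, at 59260.0 to 66879.5 RPM in SE and 62274 to 69158 RPM in CON libraries for 19 entries. Of these 18 were tested and 0 were called, against 1.03% of all 290 tested miRNAs, with a median log2 fold change of -0.11. The SE and CON values of 1 of the 18, miR-344d-3p, did not overlap, where 14.8% of all tested miRNAs had no overlap. miR-344d-3p was at 9.77, 14.5 and 10 RPM in SE replicates 1, 2 and 3, against 24.5, 15.5 and 16.3 RPM in CON replicates 1, 2 and 3 (limma adjusted p of 0.437). By the mean over all 6 libraries miR-7a-5p and miR-127-3p led the list, with log2 fold changes of 0.17 (standard error 0.12) and -0.08 (standard error 0.13).

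Other receptor and channel genes also carry miRNAs in their introns, among them Chrm2, Grid1, Gabre, Trpm3, Trpm1 and Clcn5. Of 24 arms named for these genes, 22 had a row, 17 were detected and 5 tested. The limma test called 0 of the 5, against 1.03% of all 290 tested miRNAs, and their median log2 fold change was -0.01. By the mean over all 6 libraries the most abundant after miR-204-5p was miR-532-5p from Clcn5, a chloride transporter gene on chromosome X, with a mean of 315 RPM in SE (SD 37.5, n = 3) and of 397 RPM in CON (SD 41.1, n = 3). Its log2 fold change was -0.33 (standard error 0.19), with a limma adjusted p of 0.641.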

How the data were processed

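Small RNA of brain vesicles was sequenced in 3 SE and 3 CON libraries, made with the QIAseq miRNA kit per the labels' protocols. The build was mm9 and DESeq2 was used, with no role stated, per the submitters' processing notes. The aligner, the counter and any use of molecular identifiers are not given in the sources used here. The authors' deposited RPM values scale miRNA reads to 1 common total per library. The authors' deposited comparison holds a base mean (a normalized count signal), log2 fold changes with standard errors, a Wald score and p-values.

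With the lowest value of a column taken as 2 reads, all RPM values came to whole reads with a departure of at most 0.0029. The SE size factors were fitted on miRNAs without CON reads, and each CON total was what those reads left of the base mean summed over 6 libraries. All 687 totals above 0 found a CON row (relative tolerance 1e-05), 597 of them with 1 candidate row and 90 with several rows of identical reads. The matching was tested on simulated tables.

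log2(RPM + 1) of miRNAs whose mean reached 10 RPM was tested with limma-trend, two-sided (R 4.3.3 with limma 3.58.1), with Benjamini-Hochberg adjustment. The fit was tested on simulated data. Calls have an adjusted p under 0.05. Shares have exact Clopper-Pearson intervals. Tables and figures used Python 3.11.15. The alternatives were pseudocounts, filters, scalings, limma without trend, a replicate block, left-out libraries and the CON names as deposited. The members and lists were chosen with earlier results of these data known. Named miRNAs are all members, the 5 closest profiles and, of each list, called members or otherwise its 2 most abundant; miR-429-3p and miR-344d-3p were added with their values known. Positions are from GENCODE M21 and RefSeq on GRCm38, with no coordinates taken from the files.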

Additional observations from a re-analysis of the deposited data

How the results depend on the processing

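Under 15 alternatives, 0 Htr2c arms were called in any. The log2 fold change of miR-1264-3p stayed negative throughout, from -0.98 without SE replicate 2 (limma adjusted p of 0.111) to -0.52 without SE replicate 1 (0.625), and was -0.03 with CON names as deposited. That of miR-448-3p was also negative throughout, from -0.60 to -0.03 without 1 library and -0.02 as deposited. miR-1298-5p ran from -0.42 to 0.06 without 1 library, and miR-764-3p from -0.01 to 0.65, with -0.11 as deposited. miR-764-3p has no value under a filter of 50 RPM. The count of calls over all miRNAs was 3, ran from 3 to 6 without 1 library and was 0 of 289 as deposited, with 2 at an unadjusted p under 0.05. As deposited, the CON share of member reads was 46.4% for miR-1298-5p and 29% for miR-1264-3p. The other alternatives kept these shares and the summed level within 1 SD. Median-of-ratios scaling moved the median log2 fold change of all tested miRNAs from -0.07 to 0.03. Same-numbered libraries did not deviate together (correlations -0.415, -0.249 and 0.0447), so the replicate block describes numbers only. With it there were 3 calls and miR-1264-3p had an adjusted p of 0.316. The planned edgeR test was not run. Depth limits the 6 arms below 10 RPM, several of which rest on under 10 reads in a library.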

Other observations

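miR-1912-5p was seen in 2 libraries, with 44 reads (6.58 RPM) in SE replicate 3 and 19 reads (3.47 RPM) in CON replicate 2, and was at 0 in the other 4. SE replicate 3 is also the one library in which the partner arm miR-1912-3p was at 0, so the 3′ arm took 0 of 44 reads of the hairpin there (exact 95% binomial interval 0 to 8.04%). In CON replicate 2 it took 42.4% of 33 reads (25.5 to 60.8), and in the other 4 libraries 100% of 5 to 22 reads. Of the 775 detected miRNAs, 195 were at 0 in at least 4 libraries, and 14 of these had at least 40 reads in 1 library.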
